A study of Mus musculus with 3 samples.

Results

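M1 and M2 are mitral cell types of the mouse olfactory bulb (OB) that the study named from single-nucleus RNA, and their expression profiles are compared here. Their members are the nuclei that the authors' table of retained nuclei places in projection neuron subcluster 5 (M1) and subcluster 1 (M2). These were 686 M1 and 1149 M2 nuclei, together 1835 of 31703 retained nuclei and of the 7504 nuclei with a subcluster. The table numbers the subclusters without naming them, and the names M1 and M2 rest on the study's marker genes, and the study's methods count more M1 and more M2 cells than these subclusters hold, so that membership differs from the study's own. Raw UMIs (unique molecular identifiers, each standing for 1 captured RNA molecule) were summed per replicate and type, which gave 3 M1 and 3 M2 libraries. Each replicate is 1 mouse, and the 2 libraries of a replicate came from the same animal.

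The animals were adult male C57Bl/6 mice that had been injected with retroAAV-CAG-H2B-GFP, an adeno-associated virus of the retrograde kind, in both the piriform cortex (PCx) and the anterior olfactory nucleus (AON). The virus enters axon endings and puts green fluorescent protein into the nucleus of the neuron of origin, so that GFP-positive nuclei of the injected side could be sorted. The CAG promoter that drives the transgene is active in most cell types. All M1 and M2 nuclei share this treatment, and no nuclei of animals without it were compared. The injections covered both targets at once, so that the labels do not tell which area an M1 or an M2 neuron projected to.

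Mitral cells carry the output of the OB. Each receives olfactory nerve input in 1 glomerulus, exchanges signals with inhibitory granule cells along its lateral dendrites, and sends an axon through the lateral olfactory tract to the olfactory cortex. They use glutamate as transmitter and carry the transcription factors Tbx21, Eomes and Tbr1, the cadherin-related receptor Cdhr1 and the extracellular matrix protein reelin (Reln).

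M1 gave 14, 465 and 207 nuclei in replicates 1, 2 and 3, and M2 gave 388, 457 and 304. Below, 3 values in a row are those of replicates 1, 2 and 3, and levels are UMIs per 1000000 UMIs of a library (CPM). The M1 libraries held 161593, 8347893 and 5019472 UMIs, against 8392662, 9518786 and 7464540 in M2. A single UMI was thus worth 6.19 CPM in the M1 library of replicate 1 and 0.105 to 0.199 CPM in the others. The limit that a count of 0 allows, 3 UMIs, was 18.6 CPM in that library and 0.315 to 0.598 CPM elsewhere, for counting error only. M1 made up 3.48% of the M1 and M2 nuclei of replicate 1 (95% exact binomial interval 1.92 to 5.77), 50.4% in replicate 2 (47.2 to 53.7) and 40.5% in replicate 3 (36.2 to 44.9). The median UMI number per nucleus was 11248, 16703 and 24408 in M1 and 21030.5, 19594 and 23455 in M2, a ratio of 0.535, 0.852 and 1.04. Replicate 1 lay below the other two in both measures.

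The M1 library of replicate 1 stood apart in what its nuclei expressed, too. Ebf1, the gene that leads the M1 side, had a UMI in 7 of its 14 nuclei, against 458 of 465 and 198 of 207 M1 nuclei of replicates 2 and 3. The 14 genes by which the study marks M1 summed to 1906 CPM in it and to 8683 and 8884 CPM in the M1 libraries of replicates 2 and 3. The 10 M3 genes of the study, another mitral type, summed to 742.6 CPM in it, against 250.1 and 164.0 CPM in the other M1 libraries and 64.3 to 91.0 CPM in M2. Of its 14 nuclei, 6 had most UMIs in the M1 list, 5 in the M3 list and 3 in the M2 list. These nuclei thus go against their label in part. The counts of all genes that differed, and those of the lists of neuronal genes by role, are given with and without replicate 1. Among the M1 and M2 nuclei, 1 barcode was shared between replicates 1 and 2, and none between the other pairs of replicates.

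**Figure D1:**
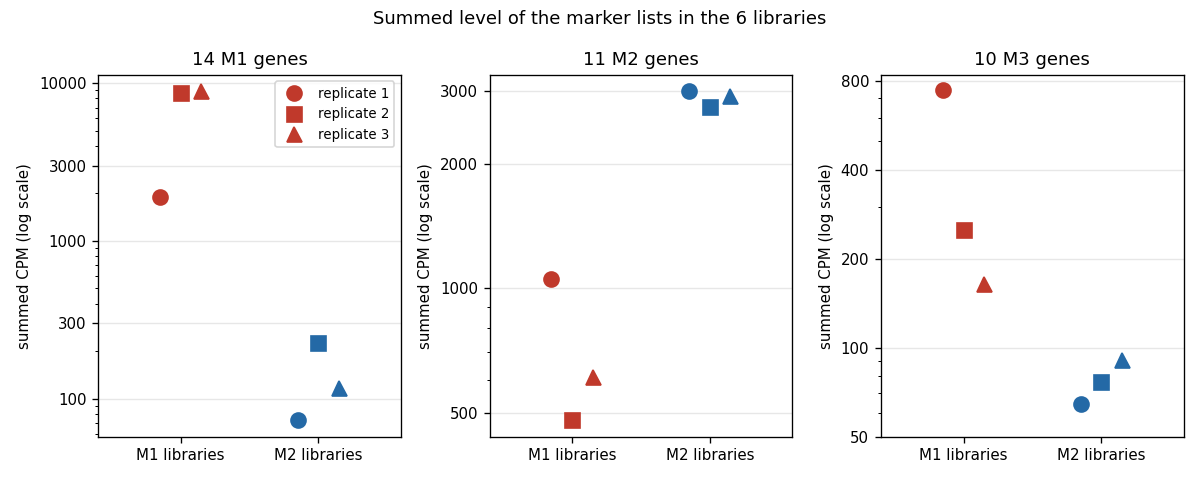
Summed CPM (log scale) of the study's 14 M1, 11 M2 and 10 M3 genes in each of the 6 libraries, with 1 point per library and the replicate given by its shape. The M1 library of replicate 1 lies between the types for the M1 and M2 lists, at 1906 and 1052 CPM, and highest for the M3 list, at 742.6 CPM.

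Both types carried mitral cell markers. Cdhr1 stood at 421, 307 and 308 CPM in M1 and 258, 267 and 259.8 CPM in M2, and Reln at 2104, 2387 and 2555 against 2019, 2087 and 2017 CPM. Tbx21 was at 24.8, 104 and 98 CPM in M1, the first of these resting on 4 UMIs, and at 96.3, 91.4 and 73 CPM in M2. Their log2 fold changes, M1 over M2, were 0.20, 0.03 and 0.01 (adjusted p = 0.43, 0.93 and 0.97). The sign turned for Reln without replicate 3 and for Tbx21 under several settings. The vesicular glutamate transporters differed. Slc17a6 (VGLUT2) was at 68.1, 87 and 90.4 CPM in M1 and 9.06, 12.5 and 14.5 CPM in M2, and no M2 library reached the lowest M1 library (log2 fold change 2.63, SE 0.18, adjusted p = 1.3e-44). Slc17a7 (VGLUT1) was at 248, 215 and 236 against 309.8, 272 and 307 CPM, a log2 fold change of -0.49 (adjusted p = 0.013) that is smaller than the threshold of a call. Slc17a8 (VGLUT3) had at most 0.479 CPM in any library and was not tested. Tbr1 fell in M1 relative to M2 by 1.16 on the log2 scale (adjusted p = 0.0085), at 18.6, 5.51 and 3.39 against 6.91, 11 and 9.91 CPM, although the M1 library of replicate 1 was above all M2 libraries with 3 UMIs. It was not called with limma voom (log2 fold change -0.87, adjusted p = 0.23), with DESeq2 (-0.91, adjusted p = 0.4) or with edgeR without the replicate block (-0.98, adjusted p = 0.051). Tbr1 was not called without replicate 2 (log2 fold change -0.85) or without replicate 3 (-0.59).

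Which genes separate the types was asked with a test across 15167 genes that passed the filter on low counts, with the mouse as a block. Calls required a fold difference of more than 1 on the log2 scale, in either direction, together with an adjusted p below 0.05. Because the authors formed the subclusters on these same counts, an adjusted p here does not test that the types exist. For most genes the model also took the spread from the trend over genes, so that very small p-values mirror that pooled spread. They do not say how evenly a single gene differed over the 3 mice. The test called 1168 genes higher in M1 (7.7% of genes tested) and 884 higher in M2 (5.83%), 13.5% in all. All 3 libraries of a type lay above all 3 of the other for 645 of the M1 genes and 720 of the M2 genes. A gene without a UMI in the M1 library of replicate 1 could be among the 720 but not among the 645. Such a 0 allows up to 18.6 CPM. These counts, and others of non-overlapping genes below, are thus not alike for both types. Among all genes tested, whether called or not, M1 libraries lay above M2 without overlap for 16.9% and M2 above M1 for 15.1%, together 32%. Differences above 16-fold were called for 78 genes in M1 and 44 in M2.

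Without replicate 1, 1285 genes were called higher in M1 and 953 in M2, and 1115 and 834 of the first calls were among them. Without replicate 2 the counts were 320 and 405, and without replicate 3 they were 371 and 424, with more calls for M2 than for M1, and DESeq2 gave 691 and 569. With the libraries scaled by size alone, the M1-higher share of calls rose from 56.9% to 64.1%. Of the 1168 genes higher in M1, 531 (45.5%) had a higher mean level in nuclei outside the projection neuron subclusters than in M1, against 140 of 884 (15.8%) for M2, and 46.6% of all genes tested were higher there than in the higher of both types. Leaving these genes out left 637 and 744 calls, and an M1-higher share of 46.1%.

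Markers of inhibitory neurons moved with M1. Their 14 genes summed to 383.7, 706.6 and 381.5 CPM in M1 and to 166.7, 265.3 and 134.9 CPM in M2, and the largest inhibitory cluster of the study (cluster 0) had 4385, 4177 and 3739 CPM. Of these 14 genes, 3 had no UMI in the M1 library of replicate 1 and none was at 0 elsewhere. M1 was higher in each mouse, and 5 of the 14 were called, Calb2 among them (log2 fold change 1.49). Gad1, an enzyme that makes GABA, was at 37.1, 104 and 35.3 CPM in M1 and 24.4, 48.4 and 18.2 CPM in M2, with overlap, and did not pass the fold threshold. Markers of immature neurons summed to 247.5, 329.2 and 293.1 CPM in M1 against 150.6, 167.5 and 160.6 CPM in M2, and 3 of 6 tested were called higher in M1. These immature markers were at 0 for 5, 1 and 2 of 8 genes in the M1 libraries and for 1 of 8 in each M2 library. Glial markers summed to 470.3, 589.5 and 714.0 CPM in M1 and 228.9, 216.6 and 223.7 CPM in M2, with 2 of 15 called, Vcan and Slc1a2. Without these 2, a split made after their values were seen, the other glial markers summed to 173, 140.04 and 114 CPM in M1 and 155, 140.1 and 132 CPM in M2, and the median log2 fold change of the 15 was 0.08. Their part in the differences below was not tested, and most lists below are given with the number of their M1 calls that stood higher outside the projection neurons.

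**Figure D2:**
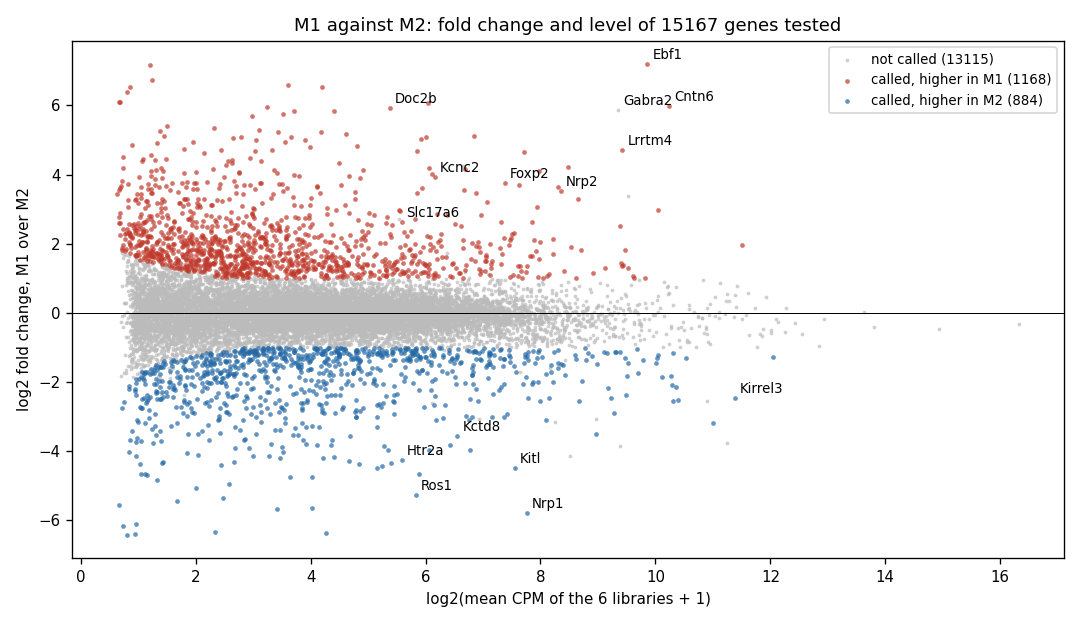
Log2 fold change, M1 over M2, of the 15167 genes tested against their level, log2(mean CPM of the 6 libraries + 1), 1 point per gene. Red points are the 1168 genes called higher in M1 and blue points the 884 called higher in M2, and grey points were not called, among them Gabra2 in spite of a log2 fold change of 5.88.

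The gene that led the M1 side was Ebf1, a helix-loop-helix transcription factor known from B cells and olfactory sensory neurons (chr11:44617317-45008091, GRCm38). It stood at 761, 2322 and 2437 CPM in the M1 libraries and at 1.07, 34.7 and 11.8 CPM in the M2 libraries. The lowest M1 library was far above the highest M2 library, and the M2 libraries themselves spread widely. The log2 fold change was 7.19 (SE 0.78, adjusted p = 0.011), and without replicate 1 it was 6.67 (adjusted p = 0.077), no longer a call. An antisense transcript within Ebf1, Gm12158, had a log2 fold change of 6.60 at 0, 37.1 and 28.9 CPM in M1. Reads of 2 overlapping genes on opposite strands cannot be told apart where the counting does not use strand, which was not given in the sources used here.

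Cntn6, a contactin that acts in synapse formation and axon guidance (chr6:104492790-104863406), was at 377, 3458 and 3285 CPM in M1 and 10.2, 60.5 and 22.4 CPM in M2 (log2 fold change 5.99, SE 0.25, adjusted p = 1.4e-40). The M1 libraries of replicates 2 and 3 were close to each other and far above that of replicate 1, which was still above M2. Doc2b, a calcium sensor of vesicle release (chr11:75768966-75796049), was at 24.8, 109 and 106 CPM in M1 and 0, 2.94 and 0.402 CPM in M2 (log2 fold change 5.92, SE 0.25, adjusted p = 4.4e-100). Baiap3, which acts in dense-core vesicle trafficking, had the reverse order within M1, 49.5, 13.1 and 9.36 CPM, over 0.238, 0.42 and 0.134 CPM in M2 (log2 fold change 5.83, and 5.13 without replicate 1). Baiap3 met the minimum mean level of a leading gene, 20 CPM, only through replicate 1, where it had 8 UMIs. Adgrl2, a latrophilin adhesion receptor, was at 18.6, 51.5 and 67.7 against 0.477, 1.58 and 1.34 CPM, with no overlap. The other M1 leaders were the odorant receptor gene Olfr1259, Fam13a and 5 non-coding transcripts, namely Gm27199, AC129186.1, Gm30382, Gm26771 and 6530403H02Rik, with log2 fold changes of 5.09 to 6.52. Gm26771 was at 55.7, 8.98 and 3.98 CPM in M1 and passed the minimum mean level of 20 CPM only through replicate 1, its log2 fold change was 5.10 with and 3.84 without that replicate, and it was higher in M3, at 46.3 CPM. Gm27199 overlaps Lhx5, a LIM homeobox gene, on the opposite strand, and Lhx5 itself was at 6.19, 22.6 and 20.9 CPM in M1 and 0.119, 0.42 and 0.134 CPM in M2.

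The M2 side was led by Nrp1, a receptor of class 3 semaphorins and VEGF (chr8:128358604-128503363). It stood at 399.9, 411 and 430.3 CPM in M2, 3 libraries within a narrow range, and at 43.3, 8.03 and 5.78 CPM in M1, the first value resting on 7 UMIs. Its log2 fold change was -5.77 (SE 0.23, adjusted p = 1.2e-128). Ros1, a receptor tyrosine kinase (chr10:52045721-52195244), was at 119, 98.8 and 89.6 CPM in M2 and 24.8, 2.16 and 2.39 CPM in M1 (log2 fold change -5.28, SE 0.24, adjusted p = 1.2e-105). Every M2 library was above every M1 library for both.

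Kitl, the ligand of the receptor Kit, was at 322, 303 and 383 CPM in M2 and 92.8, 11.3 and 13.9 CPM in M1 (log2 fold change -4.49, and -4.84 without replicate 1). Samsn1, an adaptor protein of immune cells, was at 118, 113 and 109 CPM in M2 and 0, 3.11 and 7.17 CPM in M1, a log2 fold change of -4.66 (SE 0.21). The M2 libraries of Samsn1 differed little, and the 0 in M1 is compatible with up to 18.6 CPM. Piezo2, the mechanically gated channel, was at 63.5, 70.2 and 88.7 against 18.6, 4.31 and 2.99 CPM (log2 fold change -4.34). The other M2 leaders were A1bg, its antisense partner 4930402D18Rik, Asb11, Lrrk1, the NMDA receptor subunit Grin2c and the odorant receptor genes Olfr112 and Olfr115, with log2 fold changes of -5.64 to -4.28. With limma voom in place of edgeR, all 24 leading genes were called too, with adjusted p of 3.5e-05 to 0.0044. The call of Ebf1 ended with the libraries scaled by size alone (edgeR, log2 fold change 7.33, adjusted p = 0.068), and that of Kitl without the 5% of nuclei with most UMIs (log2 fold change -4.86, adjusted p = 0.072), with fold changes no smaller than before.

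**Figure D3:**
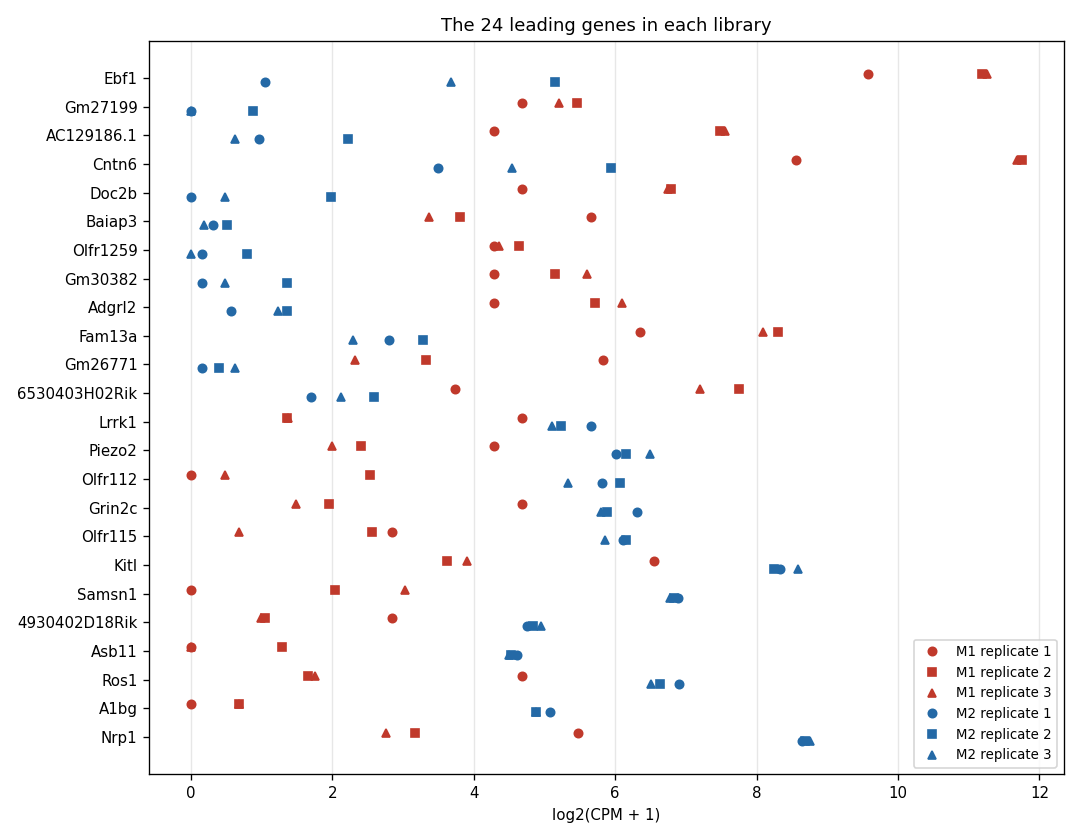
Level of the 12 leading genes of each direction, log2(CPM + 1), in the 6 libraries, with M1 in red and M2 in blue and the replicate given by the shape. By the rule that chose them the types do not overlap for any of the 24 genes, and for Nrp1, Ros1 and Kitl the M1 library of replicate 1 is the M1 library nearest to M2.

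Of the 14 genes by which the study marks M1, 13 were called higher in M1 and none in M2, and 12 without replicate 1. The study chose this list on these nuclei, so that the count is not independent evidence of its direction. The exception was Gabra2, the alpha 2 subunit of the GABA-A receptor, at 155, 1759.7 and 1927 CPM in M1 and 6.91, 42.9 and 7.9 CPM in M2 without overlap (log2 fold change 5.88, SE 1.25, adjusted p = 0.13 with edgeR). It was called with limma voom (log2 fold change 6.08, adjusted p = 1.6e-04), with DESeq2 (5.72, adjusted p = 6.6e-08), with 21 libraries in 1 fit (6.07, adjusted p = 9.5e-06), without the replicate block (6.04, adjusted p = 0.048), without replicate 2 (6.25, adjusted p = 0.015) and without replicate 3 (4.84, adjusted p = 1.0e-45). It was not called without replicate 1 (6.27, adjusted p = 0.27). C1ql1, a secreted synaptic organizer of the C1q family, had no UMI in the M1 library of replicate 1 and 0, 59.1 and 59.97 CPM in M1, against 0.238, 1.16 and 0.536 CPM in M2. Dsc2, a desmosomal cadherin, was at 0, 20.6 and 20.3 against 0, 0.63 and 0 CPM, likewise with the 0 in replicate 1, and was not called with DESeq2 (log2 fold change 6.59, adjusted p = 0.19). Of the 11 M2 genes, chosen on the same nuclei, 10 were called higher in M2 and all 11 without replicate 1. The exception with all replicates was Sema6d, a transmembrane semaphorin, at 487, 438 and 506 CPM in M2 and 334, 41.1 and 24.3 CPM in M1. Its log2 fold change was -3.17 (adjusted p = 0.26), and -3.92 without replicate 1 (adjusted p = 3.1e-151). It was also called with limma voom (log2 fold change -3.58, adjusted p = 5.7e-04), with DESeq2 (-3.01, adjusted p = 2.1e-06), with edgeR on 21 libraries in 1 fit (-3.48, adjusted p = 1.0e-04) and without replicate 3 (-2.32, adjusted p = 0.0071). Without replicate 2 it was not called.

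Some M2 genes were close to silent in M1. Smpx, a small muscle protein, was at 10.1, 7.46 and 6.56 CPM in M2 and had 1 UMI in all of M1, a ratio of 109 with a counting interval of 19.4 to 4338. Vgll2, a cofactor of the TEAD transcription factors, was at 33.4, 27.1 and 23.7 CPM in M2 and 24.8, 0 and 0 CPM in M1. All 4 of its M1 UMIs were in replicate 1. In replicates 2 and 3 together M1 had none in 13367365 UMIs, against 25.6 CPM in M2, so that M2 was at least 114 times higher over both libraries, with the floor of 3 UMIs taken over the group. Zfp114, a zinc finger gene, was at 52.7, 52.1 and 48.4 against 0, 9.1 and 5.98 CPM, and Itga9, an integrin alpha subunit, at 42.4, 37.3 and 35.6 against 37.1, 5.51 and 2.39 CPM, the latter overlapping through replicate 1. Nts, the peptide neurotensin, was low in both types, at 8.94, 8.51 and 6.56 CPM in M2 and 12.4, 1.44 and 0.398 CPM in M1, and its libraries overlapped. Nts was not called without replicate 2 (log2 fold change -2.65) or without replicate 3 (-2.09).

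The share of nuclei with a UMI was taken with every nucleus thinned to 5000 UMIs, since depth differed between the types. Ebf1 was then found in 50%, 98.9% and 97.4% of M1 nuclei and in 0.278%, 2.64% and 1.66% of M2 nuclei. Nuclei of the inhibitory cluster 0, which should lack it, had shares of 0.576%, 1.72% and 1.14%, with 95% intervals that overlap those of M2 in each replicate. In replicate 2 this did not hold at other depths, where M2 had 3.28% (1.85 to 5.36) against 1.27% (0.988 to 1.61) in cluster 0 at 3000 UMIs, and 6.35% (4.29 to 8.99) against 2.76% (2.34 to 3.23) without thinning. In the same M2 library 14 of 457 nuclei had more UMIs of the M1 list than of the M2 list, against 0 of 388 and 3 of 304 in the others. Cntn6 was found in 35.7%, 97.8% and 100% of M1 and in 4.44%, 9.01% and 7.31% of M2 nuclei, with 4.61%, 4.19% and 5.15% in cluster 0. The intervals of M2 and cluster 0 overlapped in replicates 1 and 3, but not in replicate 2, where that of M2 was 6.54 to 12.03% and that of cluster 0 was 3.64 to 4.81%. Without thinning they overlapped in no replicate, with M2 at 12.4% (9.26 to 16.1), 18.4% (14.9 to 22.2) and 20.1% (15.7 to 25.0). Cluster 0 was then at 6.23% (4.97 to 7.68), 6.20% (5.57 to 6.87) and 7.86% (6.22 to 9.76). Samsn1 was found in 38.6%, 38.0% and 31.2% of M2 nuclei, and in 0, 1.32% and 2.07% of M1 nuclei, where 0 of 14 allows up to 23.2%. The share of cluster 0 was 1.92%, 1.93% and 1.49%, with intervals that overlap those of M1 in each replicate. Without thinning they did not in replicate 3, where M1 had 10.6% (6.78 to 15.6) against 2.65% (1.72 to 3.89). Gabra2 was found in 21.4%, 98.2% and 99.5% of M1 nuclei and in 2.78%, 7.47% and 2.99% of M2 nuclei. Sema6d was found in 71.4%, 10.99% and 9.84% of M1 nuclei and in 74.2%, 76.7% and 75.1% of M2 nuclei. For both of these genes the M1 library of replicate 1 was thus on the M2 side of the other M1 libraries, and cluster 0, with shares of 76.4% to 81.4% and 43.3% to 47.4%, expresses them and gives no background.

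Described by role, 15 of 16 lists of neuronal genes had a larger share called higher in M1 than the 7.7% of all genes tested, and 14 of 16 a larger share called higher in M2 than 5.83%. Of 116 transcription factors tested, 20 (17.2%) were called higher in M1 and 17 (14.7%) in M2, with a median log2 fold change of 0.06 against -0.01 over all genes. Leaving out replicate 2 or 3, which keeps the M1 library of 14 nuclei as 1 of 2, lowered these and most other list counts, to 10 and 10 without replicate 2 and 11 and 8 without replicate 3. They were 22 and 20 without replicate 1 and 12 and 11 with DESeq2. Beside Ebf1 and Lhx5, Foxp2, a forkhead factor known for its part in vocal learning, was at 384, 293 and 262 CPM in M1 and 13.1, 29.9 and 16.9 CPM in M2 (log2 fold change 3.75, SE 0.17). Foxp2 was high in all M1 libraries, the one of replicate 1 included, and its level outside the projection neurons was 172 CPM. Higher in M2 beside Zfp114 were Lmo2, a LIM-domain adaptor known from blood cell formation, and Neurod6, a neuronal helix-loop-helix factor. Lmo2 stood at 26.9, 24.1 and 28 CPM in M2 and 0, 2.04 and 3.98 CPM in M1 (log2 fold change -3.30, SE 0.30). Neurod6 was low, at 2.26, 1.996 and 1.61 CPM in M2 and 4 UMIs in the M1 library of replicate 2, and was not called with limma voom (log2 fold change -1.93, adjusted p = 0.1) or DESeq2 (-2.78, adjusted p = 0.22). Of the 20 called for M1, 12 stood higher outside the projection neurons. Neurod6 was not called without replicate 2 (log2 fold change -6.14) or without replicate 3 (-2.18).

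Since Ebf1 led the comparison, the core of its binding motif, CCCNNGGG, which reads the same on both strands, was sought in RefSeq promoters (GRCm38.p6, 250 bases before to 50 after the start). It was in 18.5% of 626 promoters of the 645 non-overlapping genes higher in M1, of which 447 had an entry. The share was 19.8% for the 720 genes higher in M2, 17.5% for all genes tested and 13.7% over all promoters. The M1 and M2 groups were thus close to each other. In the 14 M1 genes of the study, 9 with an entry, 1 of 11 promoters held it, that of Baiap3, and in the M2 genes 1 of 9, that of Itga4. These promoters are shown, 1 from each type, with the match in capitals, for the minus strand of chr17:25256315-25256614 (Baiap3) and the plus strand of chr2:79255176-79255475 (Itga4).
Baiap3: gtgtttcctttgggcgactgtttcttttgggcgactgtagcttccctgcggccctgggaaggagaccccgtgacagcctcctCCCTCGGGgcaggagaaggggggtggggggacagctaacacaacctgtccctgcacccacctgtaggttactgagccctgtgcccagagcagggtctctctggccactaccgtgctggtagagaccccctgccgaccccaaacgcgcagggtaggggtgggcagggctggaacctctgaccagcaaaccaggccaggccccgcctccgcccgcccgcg
Itga4: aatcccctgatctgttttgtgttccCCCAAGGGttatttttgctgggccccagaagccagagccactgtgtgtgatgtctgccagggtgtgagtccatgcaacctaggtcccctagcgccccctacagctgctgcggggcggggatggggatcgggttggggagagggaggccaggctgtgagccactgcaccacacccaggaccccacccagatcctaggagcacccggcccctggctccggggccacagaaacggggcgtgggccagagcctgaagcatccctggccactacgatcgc
The match begins at base -168 from the start of Baiap3 and at -225 from that of Itga4. A match is a string of letters and does not show binding.

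Axon guidance receptors of the neuropilin family divided the types. Beside Nrp1 in M2, Nrp2 was high in M1, at 384, 679 and 760.2 CPM, and low in M2, at 34.4, 54 and 54.1 CPM (log2 fold change 3.51, SE 0.18, adjusted p = 5.3e-80). The lowest M1 library was well above the highest M2 library. Of 26 semaphorins, plexins and neuropilins tested, 5 were called higher in M1 and 7 in M2, all 12 without overlap, with a median of -0.20 that was 0.04 without replicate 1. Plxna1, a signalling partner of neuropilins, was at 12.4, 43.4 and 42.6 CPM in M1 and 6.32, 6.51 and 5.76 CPM in M2 (log2 fold change 2.57). Its relative Plxna2 was the other way round, at 124, 20.5 and 14.5 CPM in M1 and 165, 169 and 170.1 CPM in M2 (log2 fold change -3.02, adjusted p = 0.012). Its call ended with the libraries scaled by size alone (edgeR, log2 fold change -2.90, adjusted p = 0.16) and without the 5% of nuclei with most UMIs (log2 fold change -3.25, adjusted p = 0.16). Sema7a, a membrane-anchored semaphorin, was at 21.3, 20.7 and 27.9 CPM in M2 and 12.4, 2.16 and 0.797 CPM in M1, and Sema4a, low in both, at 6.19, 4.91 and 2.59 CPM in M1 and 0, 0.42 and 0.536 CPM in M2. Sema3f, a secreted ligand of neuropilin 2 that was chosen after its values were seen, was at 23.9, 20.5 and 22.8 CPM in M2 and 12.4, 7.07 and 1.99 CPM in M1 (log2 fold change -2.22, adjusted p = 1.6e-13). Sema3a, a ligand of neuropilin 1 chosen in the same way, overlapped between the types, at 192, 499 and 736 CPM in M1 and 658, 565 and 556 CPM in M2. Of the 5 calls for M1, 1 stood higher outside. Counts for M1 and M2 were 6 and 8 without replicate 1, 4 and 6 without replicate 2 and 5 and 8 without replicate 3. Sema4a was not called without replicate 2 (log2 fold change 2.78).

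Among the 37 tested ephrins, Slits, netrins and other guidance genes, 14 were called higher in M1 and 3 in M2, a median of 0.15. Of the 14, 9 stood higher outside the projection neurons. For M1, edgeR made 0 calls without replicate 2 and 0 without replicate 3 (5 and 6 genes were higher in M1 at an unadjusted p under 0.05), against 14 (and 2 for M2) without replicate 1, 14 with limma voom and 9 with DESeq2. Unc5a, a netrin receptor, was at 12.4, 14.6 and 14.1 CPM in M1 and 2.26, 2.1 and 4.69 CPM in M2 (log2 fold change 2.08). The netrin receptor Dcc was at 532, 682 and 806 CPM in M1 and 1630.0, 1316 and 1343 CPM in M2, a log2 fold change of -1.23 that shrank to -0.92 without replicate 1 and then missed the fold threshold. Lrrc4c, a netrin G ligand at synapses, was at 1109.8, 1026 and 978 CPM in M2 and 371, 126 and 95.8 CPM in M1 (log2 fold change -2.90), without overlap. The ephrins Efnb3 and Efna1 were low, at 18.6, 17.7 and 12.4 and at 6.19, 13.9 and 8.37 CPM in M1, and both were called higher in M1. Their M1 values in replicate 1 rest on 3 and 1 UMIs, and Efnb3 was at 31.9 CPM outside. Efna1 was not called without replicate 2 (log2 fold change 1.13) or without replicate 3 (1.79). Efnb3 was not called without replicate 2 (log2 fold change 2.22) or without replicate 3 (1.65). Unc5a was not called without replicate 2 (log2 fold change 1.68) or without replicate 3 (2.54).

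**Figure D4:**
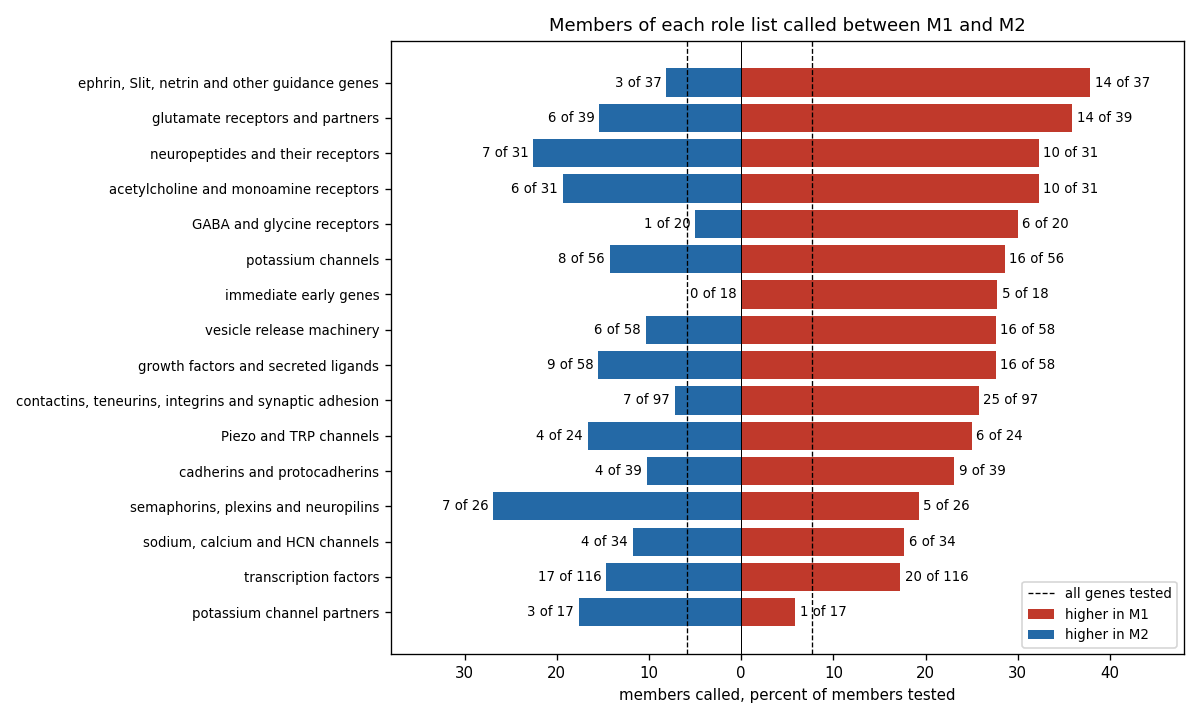
Percent of the tested members of each role list that were called higher in M1 (red, to the right) or in M2 (blue, to the left), with the counts beside the bars and dashed lines at the shares of all genes tested, 7.7% and 5.83%. Guidance genes such as ephrins and Slits have the longest M1 bar, 14 of 37 (0 without replicate 2 and 0 without replicate 3), and semaphorins, plexins and neuropilins the longest M2 bar, 7 of 26.

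Cell adhesion genes were called more for M1. Of 97 contactins, teneurins, integrins and synaptic adhesion genes tested, 25 were higher in M1 and 7 in M2 (median 0.26), and 18 of the 25 were higher still outside the projection neurons. These counts became 25 and 8 without replicate 1, 14 and 7 without replicate 2 and 15 and 5 without replicate 3. Lrrtm4, a postsynaptic partner of neurexins, was at 1275, 1197 and 1496 CPM in M1 and 25.6, 89.4 and 38 CPM in M2, and at 2461 CPM outside. Its log2 fold change was 4.70 (adjusted p = 7.6e-65), and 4.39 without replicate 1 with an adjusted p of 0.24, which ended the call. Kirrel3, an immunoglobulin adhesion protein that sorts olfactory axons, was at 4020.3, 4488 and 4282 CPM in M2 and 2098, 669 and 502 CPM in M1 (log2 fold change -2.46, and -3.00 without replicate 1). With the libraries scaled by size alone it was not called, at a log2 fold change of -2.30 (edgeR, adjusted p = 0.21). Itga4, an integrin alpha subunit, was at 24.8, 19.96 and 24 CPM in M2 and 0, 2.87 and 1.59 CPM in M1, and it overlaps Cerkl, also higher in M2, on the other strand. Mdga1, which binds neuroligins, was at 127, 129 and 124 CPM in M2 and 55.7, 47.7 and 35.7 CPM in M1. The M2 libraries were above those of M1 for all 3.

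Of 39 cadherins and protocadherins tested, 9 were called higher in M1 and 4 in M2, and without replicate 1 these were 12 and 6. Of the 9, 3 stood higher outside. The calls for M1 and M2 were 5 and 3 without replicate 2, 3 and 3 without replicate 3, and 5 and 5 with DESeq2. Cdh7, a classical cadherin, was at 24.8, 29.1 and 27.3 CPM in M1 and 2.5, 3.05 and 2.95 CPM in M2 (log2 fold change 3.12, SE 0.30). Pcdh19, a protocadherin linked to epilepsy, was at 92.8, 75.6 and 77.1 CPM in M1 and 6.2, 13 and 6.43 CPM in M2 (log2 fold change 2.97). Cdh6 was reversed, at 174, 175 and 167 CPM in M2 and 74.3, 27.3 and 32.9 CPM in M1 (log2 fold change -2.50). No library of one type overlapped with the other for these 3. Cdh22 was lower in M1 by a smaller step (log2 fold change -1.39), and Celsr2, a cadherin with a receptor tail, was higher (log2 fold change 1.49), and both stood higher still outside, at 65.6 and 36.5 CPM. Cdh22 was not called without replicate 2 (log2 fold change -1.37) or without replicate 3 (-1.17). Celsr2 was not called without replicate 2 (log2 fold change 1.45) or without replicate 3 (1.18).

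Potassium channels differed in both directions. Of 56 tested, 16 were called higher in M1 and 8 in M2 (median 0.33), and 13 of the 16 were higher outside the projection neurons than in M1. The calls for both types came to 16 and 9 without replicate 1, 5 and 6 without replicate 2, 6 and 6 without replicate 3, and 10 and 7 with DESeq2. Kcng1, a silent subunit that modifies Kv2 channels, was not among these, at 37.1, 75.9 and 85.1 CPM in M1, 11.2, 13.4 and 8.98 CPM in M2 and 1.48 CPM outside (log2 fold change 2.61, SE 0.19, adjusted p = 3.6e-41). Kcnc2, a Kv3 channel of fast-firing neurons, was at 86.6, 140.4 and 170.3 CPM in M1 and 8.94, 12 and 4.69 CPM in M2, but at 503 CPM outside (log2 fold change 3.92). Kcnh1 (EAG1) was low, with 12.4, 10.2 and 9.76 CPM in M1, 2.5, 2.31 and 1.47 CPM in M2 and 105 CPM outside. Kcnh1 was not called without replicate 2 (log2 fold change 2.45) or without replicate 3 (2.01).

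On the M2 side Kcnj3, a subunit of the G protein-gated inward rectifier (GIRK1), was at 459, 440.3 and 440.2 CPM in M2 and 198, 107 and 43.8 CPM in M1 (log2 fold change -2.47, SE 0.18). Its M2 libraries were nearly equal, those of M1 varied, and the level outside was 984 CPM. Kcnj6, the GIRK2 subunit, was chosen after its values were seen and went the other way, at 86.6, 47.6 and 21.7 CPM in M1 and 5.48, 14.5 and 4.02 CPM in M2 (log2 fold change 2.11, adjusted p = 3.2e-17), with 177 CPM outside. Kcns2, another silent Kv subunit, was at 10.01, 11.6 and 8.44 CPM in M2 and 6.19, 2.16 and 2.39 CPM in M1, the latter's first value being 1 UMI. Kcnk9, the leak channel TASK3, was at 25, 19.2 and 18.1 CPM in M2 and 0, 8.62 and 5.58 CPM in M1, where the 0 of replicate 1 allows up to 18.6 CPM. Kcns2 was not called without replicate 2 (log2 fold change -1.70) or without replicate 3 (-2.32). Kcnk9 was not called without replicate 3 (log2 fold change -1.55).

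Of 17 tested channel partners, 1 was called higher in M1 and 3 in M2. There were 2 and 4 without replicate 1, 1 and 3 without replicate 2 and 1 and 2 without replicate 3. Kctd8, an auxiliary subunit of the GABA-B receptor, was at 168, 189 and 147 CPM in M2 and 24.8, 18.9 and 11 CPM in M1 (log2 fold change -3.56, SE 0.18, adjusted p = 6.6e-82). Kcnab1, a beta subunit of Kv1 channels, was at 195, 156 and 161 CPM in M2 and 55.7, 59.4 and 48.4 CPM in M1, and an antisense transcript within it was lower in M1, too. Kcnip1, a calcium-binding partner of Kv4 channels, was at 30.9, 175 and 167 CPM in M1 and 6.32, 10.5 and 4.15 CPM in M2, below the 370.2 CPM outside the projection neurons. The types did not overlap for any of the 3.

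Sodium, calcium and HCN channels gave 6 calls for M1 and 4 for M2 among 34 tested, with a median of -0.12, and 2 of the 6 stood higher outside. Without replicate 1 there were 7 and 4, without replicate 2 4 and 4, and without replicate 3 4 and 3. Scn3b, a beta subunit of sodium channels, was at 74.3, 103 and 92 CPM in M1 and 16.1, 27.1 and 19 CPM in M2 (log2 fold change 1.98), and the pore subunit Scn3a had 229, 218 and 201 against 52.3, 72.2 and 72.7 CPM. The T-type calcium channels were divided, with Cacna1h at 32.5, 21.6 and 18.4 CPM in M2 and 0, 4.55 and 2.59 CPM in M1 (log2 fold change -2.60) and Cacna1i, at low level, at 12.4, 7.91 and 3.39 CPM in M1 and 2.38, 1.89 and 1.07 CPM in M2 (log2 fold change 1.84). Cacna2d3, an auxiliary calcium channel subunit, was at 487, 391 and 378 CPM in M2 and 130.0, 68.6 and 65.7 CPM in M1. M2 was thus higher for Cacna1h and Cacna2d3 in each mouse, and outside the projection neurons Cacna1h was at 32.6 and Cacna1i at 61.3 CPM. Cacna1i was not called without replicate 2 (log2 fold change 1.74) or without replicate 3 (1.97).

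Among Piezo, TRP and anoctamin channels, 6 of 24 tested were called higher in M1, 4 of which stood higher outside, and 4 in M2. The calls numbered 7 and 4 without replicate 1, 5 and 2 without replicate 2 and 5 and 3 without replicate 3. Trpm3, a steroid- and heat-gated channel, was at 340.4, 510.3 and 477 CPM in M1 and 35.1, 62.7 and 45.7 CPM in M2, and at 930.4 CPM outside (log2 fold change 3.07). Trpc7, a lipid-gated channel, was at 12.4, 31.6 and 31.9 CPM in M1 and 4.05, 6.09 and 3.75 CPM in M2 (log2 fold change 2.50). Its relative Trpc5 was reversed, at 100.3, 81.3 and 71.7 CPM in M2 and 30.9, 22.3 and 17.9 CPM in M1 (log2 fold change -2.01). Each of the 3 separated the types without overlap, though the first value of Trpc7 in M1 is 2 UMIs.

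Receptors for inhibitory transmitters were called mostly for M1. Of 20 GABA and glycine receptor genes tested, 6 were higher in M1 and 1 in M2 (median 0.60), and without replicate 1 there were 8 and 1. Of the 6, 1 stood higher outside. Leaving out replicate 2 or replicate 3 left 4 and 1 each. Glra2, a glycine receptor subunit, was at 24.8, 26.8 and 39.8 CPM in M1 and 1.79, 2.52 and 2.28 CPM in M2 (log2 fold change 3.63). Its relative Glra3 was at 6.19, 33.2 and 31.1 CPM in M1, 1 UMI in replicate 1, and 3.1, 3.05 and 3.22 CPM in M2 (log2 fold change 3.10). Both were without overlap. Gabrb2, a beta subunit of the GABA-A receptor, was the call for M2, at 1095, 972 and 1051 CPM against 365, 407 and 501 CPM in M1 (log2 fold change -1.44, SE 0.18). Gabra2 was higher in M1 in all 3 mice as given above, with 431 CPM outside the projection neurons.

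Of 39 glutamate receptor genes and partners tested, 14 were higher in M1 and 6 in M2 (median 0.45), and 10 of the 14 were higher still outside. Calls for M1 and M2 were 16 and 6 without replicate 1, 7 and 6 without replicate 2 and 12 and 6 without replicate 3. Grin2c, the GluN2C subunit of the NMDA receptor, was at 78, 58.1 and 54.7 CPM in M2 and 24.8, 2.87 and 1.79 CPM in M1 (log2 fold change -4.44, SE 0.25). Gria1, the GluA1 subunit of the AMPA receptor, was at 728, 650.2 and 627 CPM in M2 and 155, 195 and 68.3 CPM in M1, but its call ended without replicate 1 (log2 fold change -2.54 with and -2.50 without, adjusted p = 1.3e-39 and 0.18). Both were above M1 in every M2 library, and Gria1 was at 975 CPM outside. Cacng3, an AMPA receptor auxiliary subunit, was the other way, at 18.6, 87 and 51.4 CPM in M1 and 3.81, 5.88 and 1.61 CPM in M2 (log2 fold change 3.91), with 75.3 CPM outside. The metabotropic receptor Grm2 and the kainate receptor subunit Grik4 were higher in M1 at low levels, by 3.58 and 3.75 on the log2 scale, and Grm2 also stood higher outside.

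Receptors for neuromodulators were called in both directions. Of 31 acetylcholine and monoamine receptors tested, 10 were called higher in M1, 6 of which stood higher outside, and 6 in M2. The numbers became 10 and 7 without replicate 1, 3 and 3 without replicate 2, 5 and 3 without replicate 3, and 4 and 3 with DESeq2. The nicotinic receptor subunit Chrna5 was at 12.4, 17.1 and 12.2 CPM in M1 and 0.238, 1.05 and 0 CPM in M2 (log2 fold change 4.69). Chrna3, which lies beside it and can join it in 1 receptor, was at 37.1, 46.5 and 39.6 CPM in M1 and 12, 15.2 and 16.3 CPM in M2 (log2 fold change 1.36). M1 was above M2 in every library for both. Htr2a, the serotonin 2A receptor, was at 82.9, 67.3 and 81.5 CPM in M2 and 43.3, 3.95 and 2.59 CPM in M1 (log2 fold change -4.24, SE 0.23), and the histamine receptor Hrh2 at 23.4, 29.5 and 22.5 CPM in M2 and 18.6, 1.92 and 1.39 CPM in M1 (log2 fold change -3.83). For both, the M1 library of replicate 1 was the one nearest to M2. Htr1a had 2 UMIs in all of M1 and at most 2.01 CPM in M2, a ratio of 10.4 (counting interval 2.69 to 88.9), and was not called with limma voom (log2 fold change -1.88, adjusted p = 0.24) or DESeq2 (-2.95, adjusted p = 0.24). Htr1f was higher in M1 by 1.10, and by 0.97 without replicate 1, under the fold threshold, and was at 517 CPM outside. Chrna3 was not called without replicate 2 (log2 fold change 1.26). Htr1f was not called without replicate 2 (log2 fold change 0.95).

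Of 31 neuropeptides and their receptors tested, 10 were called higher in M1, all 10 of which stood higher outside the projection neurons, and 7 in M2. For M1 and M2 there were 11 and 7 without replicate 1, 1 and 2 without replicate 2, 1 and 1 without replicate 3, and 5 and 3 with DESeq2. Oprm1, the mu opioid receptor, was at 30.9, 98.2 and 73.1 CPM in M1 and 12.4, 14.4 and 16.1 CPM in M2, and at 186 CPM outside (log2 fold change 2.29). Npy1r, a neuropeptide Y receptor, was at 20.6, 27.3 and 31.6 CPM in M2 and 12.4, 6.35 and 8.57 CPM in M1 (log2 fold change -2.05), and Npy5r, at lower level, had a log2 fold change of -1.86 and was not called with DESeq2 (-1.89, adjusted p = 0.097). Crh, the stress peptide corticotropin-releasing hormone, was at 6.32, 7.04 and 11.4 CPM in M2 and 0, 1.92 and 0.996 CPM in M1 (log2 fold change -2.61). M2 was above M1 in every library for these 3. Crh and Npy5r had no UMI in the M1 library of replicate 1, which allows up to 18.6 CPM, above all their M2 libraries. Npy5r was not called without replicate 2 (log2 fold change -2.02) or without replicate 3 (-1.84). Crh was not called without replicate 3 (log2 fold change -2.08).

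Of 58 growth factors and secreted ligands tested, 16 were called higher in M1, 12 of which stood higher outside, and 9 in M2. This became 17 and 9 without replicate 1, 5 and 5 without replicate 2, 9 and 5 without replicate 3, and 11 and 7 with DESeq2. Fstl5, a follistatin-like secreted protein, was at 1982, 2167 and 1977 CPM in M2 and 848, 332 and 239 CPM in M1 (log2 fold change -2.54, and -2.95 without replicate 1). Tslp, a cytokine of epithelia, was at 24.8, 10.3 and 20.5 CPM in M1, 1.07, 1.05 and 0.536 CPM in M2 and 0.208 CPM outside (log2 fold change 4.05). Inhba, which forms activin A, was at 30.9, 15.3 and 10.8 CPM in M1 and 0.477, 1.37 and 0.938 CPM in M2 (log2 fold change 3.72), with 28.7 CPM outside. The M1 libraries of Tslp and Inhba did not overlap with M2. Hgf, hepatocyte growth factor, had 3 UMIs in M2 and a ratio of 13.1 (counting interval 3.92 to 68.7) towards M1, and was at 13.6 CPM outside. It was at 12.4, 1.44 and 1.39 CPM in M1, the first value from 2 UMIs, and its log2 fold change was 3.80 with and 2.81 without replicate 1.

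The machinery of vesicle release gave 16 calls for M1 and 6 for M2 among 58 genes tested, with a median of 0.10, and 7 of the 16 stood higher outside. The calls became 16 and 7 without replicate 1, 8 and 5 without replicate 2 and 10 and 4 without replicate 3. Next to Doc2b and Baiap3, Rph3a, an effector of Rab3, was at 12.4, 68.2 and 76.5 CPM in M1 and 0.834, 3.36 and 0.938 CPM in M2 (log2 fold change 4.81, SE 0.26). Sv2b, a vesicle glycoprotein, was higher in M2, at 348, 347 and 348 CPM against 149, 50.3 and 66.5 CPM in M1 (log2 fold change -2.47, SE 0.18). Cplx1, complexin 1, was at 74.2, 78.1 and 68.6 CPM in M2 and 30.9, 25.5 and 13.9 CPM in M1 (log2 fold change -1.97), and the vesicle GTPase Rab3b at 337, 309.8 and 382 CPM in M2 and 111, 146 and 145 CPM in M1 (log2 fold change -1.44). The 3 M2 genes kept a narrow range in M2, and none overlapped with M1.

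Of 18 immediate early genes tested, 5 were called higher in M1 and none in M2, and all 5 stood higher outside the projection neurons. There were 0 calls for M1 without replicate 2, without replicate 3 or with DESeq2 (4, 4 and 5 genes at an unadjusted p under 0.05), and 4 with limma voom. Egr3 was at 12.4, 4.43 and 1.2 CPM in M1 and 0.715, 0.84 and 0.67 CPM in M2, and Ier2 at 37.1, 6.71 and 6.38 against 1.07, 3.68 and 2.95 CPM, where the M1 library of replicate 1 was the highest for both with 2 and 6 UMIs. Without replicate 1, 3 genes of the list were called higher in M1, Egr3 was under the filter on low counts, and Ier2 had a log2 fold change of 0.89, under the fold threshold. DESeq2 called neither (log2 fold change 2.16 and adjusted p = 0.096 for Egr3, 1.93 and 0.095 for Ier2), and limma voom did not call Ier2 (log2 fold change 1.61, adjusted p = 0.12). Ier2 was not called without replicate 2 (log2 fold change 2.36) or without replicate 3 (1.99). Egr3 was not called without replicate 3 (log2 fold change 2.63).

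A run of odorant receptor genes on chromosome 17 was higher in M2. Olfr110, Olfr111, Olfr112, Olfr113, Olfr114 and Olfr115 lie between bases 37492468 and 37627109, and all 6 were called, with log2 fold changes of -4.95 to -3.79. Apart from Olfr112 and Olfr115 they were chosen after their values were seen. Olfr111 was at 218, 246 and 154 CPM in M2 and 6.19, 18.3 and 9.96 CPM in M1, and Olfr112 at 55.4, 66.3 and 39.4 CPM in M2 and 0, 4.79 and 0.398 CPM in M1. The 3 M2 libraries were above those of M1 for each of the 6. Olfr113 and Olfr114 had no UMI in the M1 library of replicate 1, which allows up to 18.6 CPM, above all their M2 libraries. Olfr110 had 2 UMIs there, at 12.4 CPM against 12.7 to 13.8 CPM in M2. In the tufted cell type T1, Olfr111 had a mean of 1477 CPM, above both mitral types. The neighbours Olfr116 to Olfr119 had at most 0.134 CPM in M1 or M2 and were not tested. Olfr116 shares 6533 bases with Olfr115 on the same strand, so that the values of both are uncertain. Members of this family are alike in sequence, so that reads may be hard to assign to 1 of them and the values are uncertain.

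Among all 7 projection neuron types with a library in each mouse, the genes differed in where they peaked. Of the 645 non-overlapping genes higher in M1, 316 had their highest mean in M1 itself, 130 in ET2, 91 in M3, 84 in ET4, 16 in ET1 and 8 in T1 (ET, external tufted cells; T, tufted cells). Of the 720 higher in M2, 251 were highest in M2, 185 in T1, 114 in ET1, 73 in ET4, 54 in ET2 and 43 in M3. Nrp1, for example, averaged 502 CPM in T1, above M2, and Kitl 746 CPM, while Ros1 was at 17 CPM there, below M2. On the M1 side Ebf1 averaged 409 CPM in ET2, below M1, and Gm27199 was highest in ET2. Of 24 tested tufted cell genes of the study, 4 were higher in M1 and 5 in M2, and of 7 tested M3 genes 4 were higher in M1, 3 without replicate 1.

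**Figure D5:**
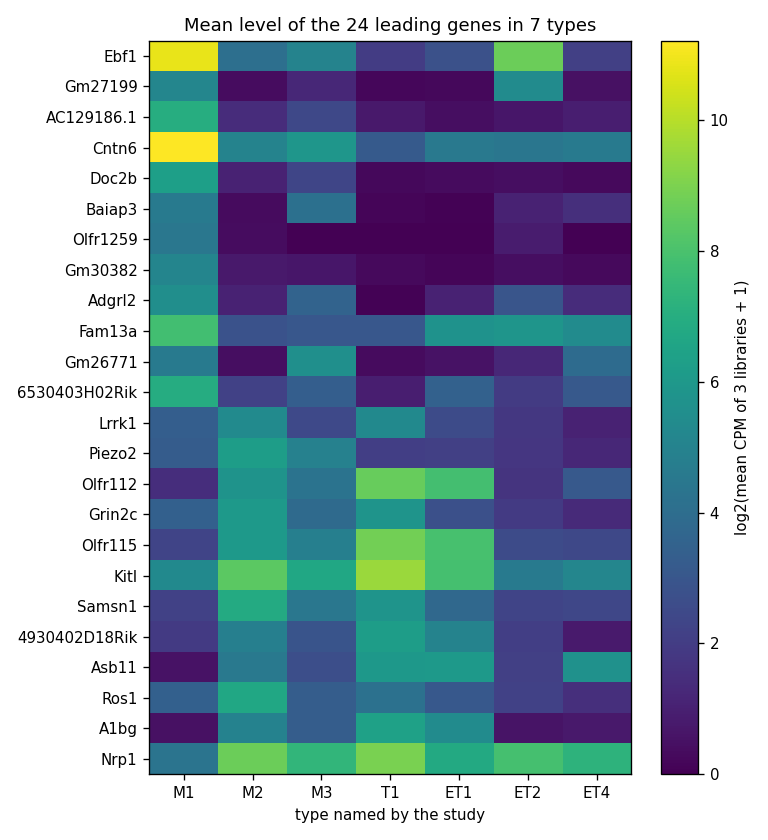
Mean level, log2(mean CPM of 3 libraries + 1), of the 24 leading genes in the 7 projection neuron types, brighter where higher. Cntn6, Doc2b and Olfr1259 are brightest in M1, Ebf1 and Gm27199 are also bright in ET2, and Nrp1, Kitl, A1bg and the odorant receptor genes of the M2 side are brightest in T1.

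The transgene itself was counted as a gene. The eGFP entry was at 24.8, 37.6 and 31.7 CPM in M1 and 3.46, 15.7 and 5.63 CPM in M2, with no overlap (log2 fold change 1.71, SE 0.24, adjusted p = 1.7e-11), and 4 UMIs stood behind the first value. It was at 71.2 CPM in the nuclei outside the projection neurons, above both types.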

How the data were processed

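Nuclei of GFP-sorted OB tissue of 3 mice were sequenced with the 10x Genomics 3' method, 1 library per mouse. The deposited matrices give, for each gene in each barcode, the raw count of UMIs from Cell Ranger, version 3.0.2 per the file headers, on mm10 (GRCm38), and they are not normalized. The authors' deposited table of retained nuclei gives the replicate and the subcluster of each nucleus, and its deposited column of mitochondrial percent, calculated by the authors, set no filter here. Recomputed UMI and gene numbers were equal to those in the table for 100% of nuclei. How doublets were treated was not given in the sources used here beyond the sort, and no caller was run. Whether counting used strand was not given either.

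Counts were summed per replicate over subclusters 5 (M1) and 1 (M2) and tested with edgeR 4.0.16 (R 4.3.3; filterByExpr, TMM, robust quasi-likelihood test, replicate as a block, Benjamini-Hochberg adjustment over 15167 genes). The block was used because both libraries of a replicate come from the same mouse. Deviations of same-numbered libraries from the type means correlated with r of -0.017, 0.087 and 0.058 over genes. Only 1912 genes kept a finite prior of the spread, with 2 residual degrees of freedom, and for the others the trend over genes set the standard error, computed from the log2 fold change and the F statistic as their ratio after taking the root of F. CPM values were taken over all UMIs of a library, and TMM factors did not enter them.

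The genes named were, in each direction, the 12 called genes with the largest fold change, no overlap and a mean of at least 20 CPM, 3 such genes per role list without the CPM minimum, the study's M1 and M2 genes, and the mitral and tufted cell markers, with 1 gene of these left out of the text. Members and lists were chosen with earlier results of these data known. Positions come from GENCODE M21 on GRCm38, which matched 31011 of 31055 genes. Of 121 named genes, 33 overlap another tested gene on the opposite strand. Shares of nuclei carry exact 95% binomial intervals, and nuclei under 5000 UMIs were left out of thinned shares (at most 28 in a library of either type). In cluster 0 this left out more, 259 of 1301, 718 of 5438 and 68 of 942 nuclei in replicates 1, 2 and 3. Alternatives were other scalings, filters, tools (DESeq2 1.42.0, limma 3.58.1) and nuclei, a fit without the block, and leaving out each replicate. limma voom, a filter by type size and the count without genes higher outside the projection neurons were added after the data were seen.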

Additional observations from a re-analysis of the deposited data

How the results depend on the processing

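The number of genes called higher in M1 and in M2 stayed within 1.5 times of the reported 1168 and 884 under other scalings (RLE, 1202 and 853; library size alone, 1335 and 749), without a filter on low counts (1223 and 932), with 21 libraries in 1 fit (1089 and 884) and with limma voom (1057 and 691). Without the replicate block it was 943 and 852 over 14389 genes, fewer than the 15167 because the filter follows the design. With the block and a filter that also kept 14389 genes it was 977 and 819. DESeq2 called 691 and 569, and leaving out genes that stood higher outside the projection neurons left 637 for M1. Leaving out 1 replicate gave 320 to 1285 genes higher in M1 and 405 to 953 in M2. The lowest counts came without replicate 2 (320 and 405) and without replicate 3 (371 and 424), which leave the M1 library of 161593 UMIs as 1 of 2. The M1-higher share of calls was then 44.1% and 46.7%, against 56.9% with all replicates. Over all genes the median log2 fold change was -0.01, and 0.10 with library size alone and 0.15 with DESeq2.

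Of 32 list counts, 16 moved by over 1.5 times without replicate 2, 14 without replicate 3, 10 with DESeq2 and 2 without replicate 1. Of 119 named genes tested without replicate 1, 111 kept their side of the threshold, 6 lost their call (Ebf1, Lrrtm4, Gria1, Dcc, Htr1f and Ier2) and 2 gained one (Sema6d and Tnfaip8), and none turned direction. Without replicate 2 and without replicate 3, 21 lost their call each, 18 of them under both (Kcnh1, Tbr1, Cdh22, Gabrq, Pcdh18, Efna1, Celsr2, Neurod6, Tacr1, Ano1, Nts, Npy5r, Ier2, Efnb3, Unc5a, Vipr2, Kcns2 and Cacna1i), Sema4a, Chrna3 and Htr1f without replicate 2, and Crh, Egr3 and Kcnk9 without replicate 3. Gabra2 gained a call without replicate 2, without replicate 3, with DESeq2, with limma voom, with 21 libraries in 1 fit and without the replicate block, and Sema6d without replicate 3, with DESeq2, with limma voom and with 21 libraries in 1 fit. Calls ended with limma voom for Tbr1, Neurod6, Ier2 and Htr1a, and with DESeq2 for these 4 and for Gabrq, Pcdh18, Npy5r, Egr3 and Dsc2. They ended for Ebf1, Plxna2, Kirrel3 and Fgf12 with library size alone, for Plxna2 and Kitl without the 5% of nuclei with most UMIs, for Tbr1 without the replicate block, for Ier2 with libraries thinned to equal UMIs, and for Htr1f with 21 libraries in 1 fit. The cause was not tested. Genes that turned direction were not called with all replicates. Tbx21 was at -0.0043 without the filter, -0.31 with DESeq2, -0.0066 without the 5% of nuclei with most UMIs, and -0.34 without replicate 2. Leaving out a replicate gave ranges of -0.0856 to 0.19 for Reln, -0.0844 to 0.82 for Fam19a2 (-0.0146 without replicate 2), -0.0507 to 0.17 for Eomes, -0.0639 to 0.21 for Lbhd2 and -0.47 to 0.22 for Tbx21.

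Shares of nuclei with a UMI moved with depth. Without thinning the mean shares over 3 replicates were 16.9% for Cntn6, 3.98% for Ebf1, 11.7% for Gabra2, 90.4% for Sema6d and 64.7% for Samsn1 in M2, and 5.26% for Samsn1 in M1. With 3000 UMIs per nucleus they were 61.8% for Sema6d and 24.9% for Samsn1 in M2. Depth limits the M1 library of replicate 1 most, where a gene without a UMI may lie at up to 18.6 CPM.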

Other observations

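Some genes listed as markers of other cells stood higher in M1 than in the nuclei outside the projection neurons. Vcan, the matrix proteoglycan versican and a marker of glial precursors, was at 80.4, 306 and 339 CPM in M1, 19.5, 24.7 and 29.6 CPM in M2 and 15.4 CPM outside (log2 fold change 3.21, adjusted p = 3.0e-67 by edgeR). Slc1a2, the glutamate transporter of astrocytes, was at 217, 144 and 261 CPM in M1, 54.5, 51.8 and 61.6 CPM in M2 and 94.7 CPM outside (log2 fold change 1.68, adjusted p = 1.1e-26). All 3 M1 libraries were above those of M2 for both genes. Of 5 vascular markers tested, 1 was called higher in M1 and none in M2.

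The M3 gene Cadps2, which acts in dense-core vesicle release, was at 297, 90.6 and 63 CPM in M1 and 13.5, 11.8 and 14.6 CPM in M2 (log2 fold change 2.83, adjusted p = 1.2e-31). Fst, follistatin, was at 396, 144 and 87.1 CPM in M1 and 49.2, 59.99 and 72.7 CPM in M2 (log2 fold change 1.14, adjusted p = 0.44). In both, the M1 library of replicate 1 was the highest of the 6. Kcnd3, a Kv4 channel, was at 210.4, 163 and 150.2 CPM in M1 and 279.8, 249 and 238 CPM in M2, a log2 fold change of -0.73 that missed the fold threshold.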
